A study of Mus musculus with 8 samples.

Results

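Bcar3 encodes an adaptor protein of the NSP family, named after the resistance of breast cancer cells to anti-oestrogens. The genes described here are Bcar3, its paralogue Sh2d3c, the CAS scaffold genes Bcar1, Nedd9 and Efs, the adaptors Crk and Crkl, and the focal adhesion kinases Ptk2 and Ptk2b, which make 9 of the 21859 gene IDs in the count table. They were measured by RNA sequencing in PER-M60, a mouse line labelled as leukaemia cells, in 4 samples from control medium and 4 from medium conditioned by osteoclasts, the cells that resorb bone. All samples are of this 1 line, and no other treatment, genotype or time is labelled. Samples are also called cultures below, but the labels do not say whether the numbered replicates were grown separately. P-values therefore measure the spread between these samples, which may be technical. Bcar3 was selected on its rise in this same comparison, so its values are a description with no test, while the other genes were listed by name as its relative and partners.

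NSP proteins carry an SH2 domain, which binds phosphotyrosine, and a C-terminal domain that is folded like an exchange factor for small GTPases but holds on to CAS proteins instead. CAS proteins are scaffolds without enzyme activity. FAK and SRC family kinases phosphorylate tyrosines along the scaffold after integrins bind their ligands, CRK adaptors dock on those tyrosines, and CRK brings DOCK and RAPGEF1 exchange factors that switch on RAC and RAP GTPases. In lymphocytes the pathway is known for adhesion and migration, with NEDD9 as the CAS protein and PYK2, the product of Ptk2b, as the FAK family kinase usually found there.

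Sequences before RefSeq starts of Bcar3 are shown because Bcar3 is the gene that stood out, and that of Nupr1 because its profile over the cultures was the most alike to that of Bcar3 (values are given further on). Each is the 250 bases before a RefSeq transcription start on GRCm38.p6, read 5′ to 3′ on the strand of the gene. RefSeq gives 2 starts for Bcar3, chr3:122419507-122419756 and chr3:122483319-122483568 being the stretches before them (plus strand), and 1 for Nupr1, chr7:126625471-126625720 (minus strand). All 3 stretches lie inside the gene as GENCODE draws it, 125.4 and 189.2 kb from the 5′ end of Bcar3 and 5.14 kb from that of Nupr1, and the bases before those outermost 5′ ends were not searched. Capitals mark the core of the amino acid response element, TGATGNAA, searched on both strands.
Bcar3 first start: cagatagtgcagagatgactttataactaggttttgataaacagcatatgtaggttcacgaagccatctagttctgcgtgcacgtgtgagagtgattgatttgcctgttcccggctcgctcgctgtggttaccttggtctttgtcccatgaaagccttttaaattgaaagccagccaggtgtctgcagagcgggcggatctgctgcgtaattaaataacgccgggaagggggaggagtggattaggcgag
Bcar3 second start: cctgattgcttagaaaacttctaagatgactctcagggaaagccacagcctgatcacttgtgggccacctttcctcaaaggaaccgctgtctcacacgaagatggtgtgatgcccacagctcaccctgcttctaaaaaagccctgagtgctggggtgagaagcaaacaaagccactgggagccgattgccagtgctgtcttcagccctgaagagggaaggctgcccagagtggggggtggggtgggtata
Nupr1: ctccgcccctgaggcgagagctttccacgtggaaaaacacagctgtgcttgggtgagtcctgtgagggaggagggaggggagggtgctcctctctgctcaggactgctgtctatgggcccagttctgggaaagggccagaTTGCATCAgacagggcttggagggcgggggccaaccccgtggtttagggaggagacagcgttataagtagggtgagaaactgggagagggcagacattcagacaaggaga
Of all 32851 RefSeq stretches of this length, 3.45% hold the core. Nupr1 has 1 match, on the reverse strand of the sequence as printed, and the Bcar3 stretches have none. The stretches of the other alike genes in the RefSeq table, Trib3, Hpgds and the 3 starts of Slc6a9, have none either, nor have those of Sh2d3c, Bcar1, Nedd9, Efs, Crk and Crkl. No match says only that these letters are not in these windows.

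Total counts per sample ran from 15391754 to 21637966, and 3 counts, taken as the detection floor, corresponded to 0.138 to 0.194 CPM. Normalised CPM are counts divided by the TMM-scaled library size, so that samples of different depth can be compared. Of the 9 genes, 7 passed the filter on low counts, as did 10729 of all gene IDs. Among those 10729 genes, edgeR's quasi-likelihood test called 30.5% at a Benjamini-Hochberg adjusted p under 0.05, 15.7% higher and 14.8% lower in osteoclast-conditioned medium. The 4 samples of one medium did not overlap those of the other in 28.2% of genes. Scaling by total counts alone lowered the share of calls that were higher from 51.6% to 40.7%, with a median log2 fold change over all tested genes of -0.03 in place of -0.01. All 9 B-lineage markers were well above the filter, with a sum of 4192 to 4216 normalised CPM in control and 4441 to 4475 in osteoclast-conditioned medium, and 6 were called higher and 1 lower. Of 11 osteoclast markers, 3 passed the filter: Nfatc1 (called higher), Itgb3 (called lower) and Acp5 (not called). The whole list summed to 128 to 135 normalised CPM in control and 139 to 145 in osteoclast-conditioned medium. Most of that sum was Nfatc1, with means of 95.6 and 105.8, and the fusion genes Dcstamp and Ocstamp were at 0 counts in every sample. Of 7 macrophage markers, 3 passed the filter (1 higher), the list summed to 20.6 to 22.01 and 21.4 to 25.1 normalised CPM, and Cd14 and Itgam were at 0 counts throughout. The sums of T cell and of stroma markers reached at most 0.175 and 0.161 normalised CPM in any sample. Mitochondrial genes took 0.903 to 1.16% of counts in control and 1.16 to 1.44% in osteoclast-conditioned medium. The part of the markers that moved and of the mitochondrial share in the values below was not tested.

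Bcar3 (ENSMUSG00000028121; chromosome 3, 122294136 to 122530191 in GRCm38, plus strand) has 10 annotated transcripts, which gene counts do not tell apart, and its exons overlap no other listed gene. Its normalised CPM in control medium were 13.3, 11.4, 13.1 and 10.8 in replicates 1 to 4, and in osteoclast-conditioned medium 31.6, 31.9, 31.6 and 29.1. Every culture in osteoclast-conditioned medium lay above every control culture, with a wide gap between the groups. Raw counts behind these values were 192 to 622 per sample, well above the floor. Their means were 12.2 ± 1.22 and 31.04 ± 1.33 normalised CPM (SD, n = 4 each), which is a 2.56-fold difference or 1.36 on the log2 scale (SE 0.07). These are the values that chose the gene: ranked by fold change among called, non-overlapping genes averaging 5 CPM or more, Bcar3 had the fifth-largest rise. The gene just outside those 5 was Tph1, which encodes tryptophan hydroxylase, with a log2 fold change of 1.33 (SE 0.12).

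Sh2d3c (ENSMUSG00000059013; chromosome 2, 32721055 to 32755512, plus strand; this and all following positions are in GRCm38) encodes the other NSP adaptor counted here, known as SHEP1 or CHAT and found in lymphocytes and endothelium. Its normalised CPM were 53.9, 53.8, 49.7 and 54.2 in control medium and 57.0, 54.4, 55.1 and 52.5 in osteoclast-conditioned medium. The groups overlap, and control replicate 3 is the lowest sample of all. The log2 fold change was 0.05 (SE 0.04, edgeR adjusted p = 0.398), and the 95% interval of the difference runs from 0.976-fold to 1.10-fold. Of its exon bases, 15.6% lie inside 6330409D20Rik on the opposite strand, which had 0 counts in all samples, and whether the counting used strand is not given in the sources used here. Sh2d3a, the remaining family name, matched no gene ID of the table.

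Compared per kilobase of annotated exons, Sh2d3c was above Bcar3 in both media. Bcar3 made up 18.7%, 16.6%, 19.8% and 15.7% of the summed length-scaled level of the pair in control replicates 1 to 4. In osteoclast-conditioned medium it made up 34.2%, 35.3%, 34.9% and 34.1%. The mean share thus went from 17.7% ± 1.88 to 34.6% ± 0.608 (SD, n = 4 each), a shift that comes from the same Bcar3 counts and is no separate result. The length used hardly moved it, with means of 17.8% and 34.7% per kilobase of the longest transcript.

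**Figure D1:**
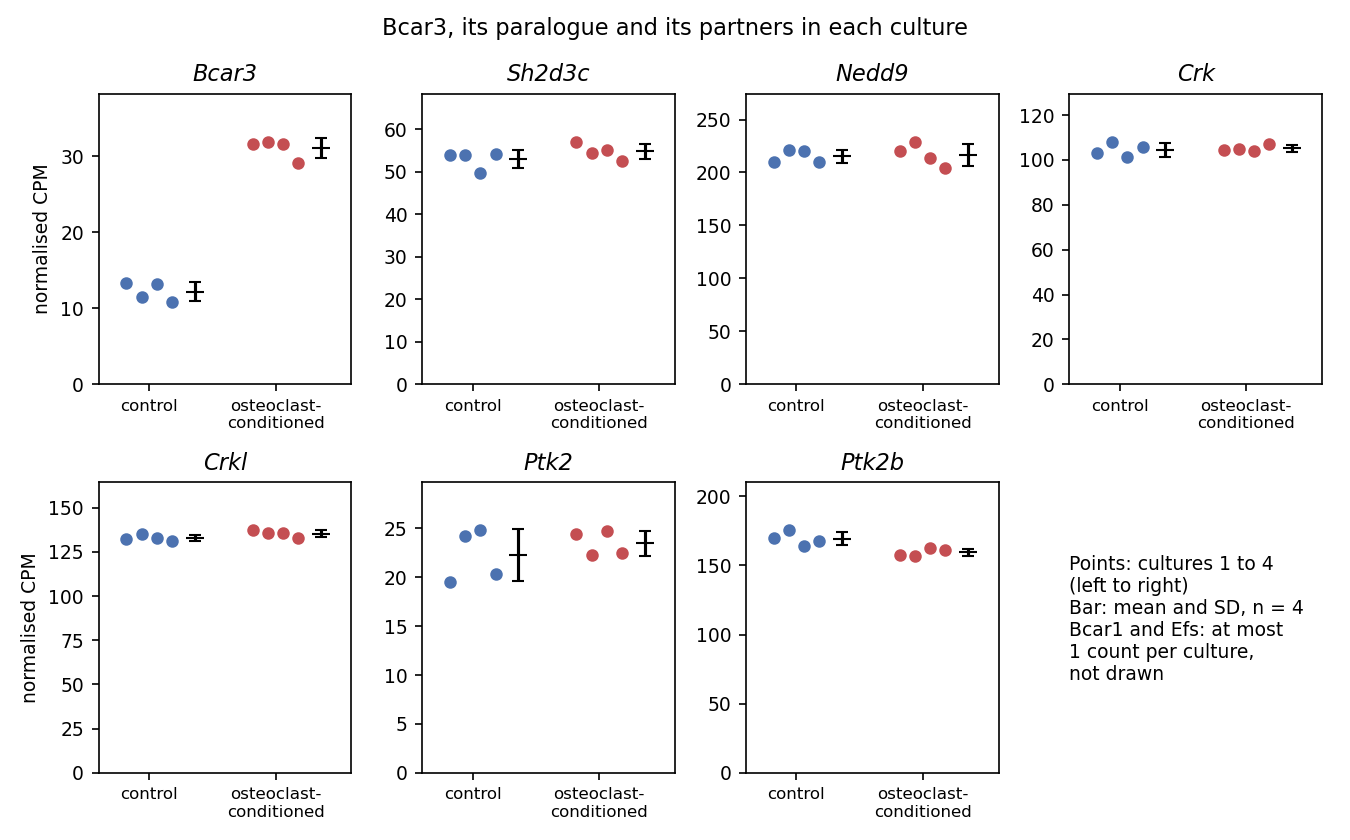
Normalised CPM (vertical axes, each from 0) of the 7 genes above the filter in the 4 cultures of each medium, as points, with the mean and SD beside them. Bcar3 separates the media (10.8 to 13.3 against 29.1 to 31.9), Ptk2b lies slightly lower in osteoclast-conditioned medium, and the samples of the other 5 genes overlap.

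Among the CAS scaffolds, Nedd9 (HEF1 or CAS-L; ENSMUSG00000021365; chromosome 13, 41309581 to 41487362, minus strand) carried nearly all the counts of the 3 listed genes. It was measured at 210.0, 220.8, 220.1 and 209.8 normalised CPM in control medium and at 220.5, 228.8, 214 and 203.8 in osteoclast-conditioned medium. The groups overlap almost completely, and both the highest and the lowest culture are osteoclast-conditioned. Its log2 fold change was 0.01 (SE 0.03, edgeR adjusted p = 0.836), with a 95% interval from 0.962-fold to 1.05-fold. Bcar1 (ENSMUSG00000031955; chromosome 8, 111710474 to 111743809, minus strand), the p130Cas gene through which BCAR3 is best known in adherent cells, had 0 or 1 count per sample and 2 in all. Efs (ENSMUSG00000022203; chromosome 14, 54916535 to 54926126, minus strand), the SIN or CASS3 gene, had 1 count in all samples together. Both were below the floor of 3 counts in each sample, so a difference between media was not detectable at this depth and no fold is given. Cass4, the remaining CAS gene and not among the 9, had means of 35.7 ± 3.41 and 37.0 ± 1.30 normalised CPM and a log2 fold change of 0.05 (edgeR adjusted p = 0.511). Per kilobase of exons, Nedd9 made up 83.5% ± 1.28 of the summed level of the 4 CAS genes in control and 83.04% ± 1.17 in osteoclast-conditioned medium, and Cass4 16.5% ± 1.26 and 16.9% ± 1.17 (SD, n = 4 each).

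Crk (ENSMUSG00000017776; chromosome 11, 75679259 to 75706908, plus strand) and Crkl (ENSMUSG00000006134; chromosome 16, 17451987 to 17487434, plus strand) encode SH2 and SH3 domain adaptors that read phosphorylated CAS. Crk stood at 103, 108, 101 and 106 normalised CPM in control replicates 1 to 4 and at 104, 105, 104 and 107 in osteoclast-conditioned ones. For Crkl, known also as a substrate of the BCR-ABL kinase, the values were 133, 135, 133 and 131 in control and 137, 135, 136 and 133 in osteoclast-conditioned medium. In both genes the media overlap, and replicates lie within a few percent of each other. The log2 fold changes were 0.0068 for Crk (SE 0.03, edgeR adjusted p = 0.895) and 0.02 for Crkl (SE 0.03, edgeR adjusted p = 0.570). Intervals of the difference at 95% were 0.960-fold to 1.05-fold for Crk and 0.976-fold to 1.06-fold for Crkl. The share of Crkl in the length-scaled sum of the pair hardly differed, at 54.4% ± 0.632 in control and 54.7% ± 0.681 in conditioned samples (SD, n = 4 each).

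Ptk2b (ENSMUSG00000059456; chromosome 14, 66153257 to 66281052, minus strand), the gene of PYK2, was the 1 gene called of the 6 tested beside Bcar3, and it was lower. That is 1 of 6 called and 1 of 6 without overlap, where 30.5% of all tested genes were called (14.8% lower, 15.7% higher) and 28.2% had no overlap, so the count is not above the background. Its normalised CPM were 169.8, 175.3, 163.9 and 167.8 in control medium and 157.9, 157.0, 162.5 and 161.0 in osteoclast-conditioned medium. The media do not overlap, but the gap between the lowest control culture and the highest osteoclast-conditioned one is narrow. The means were 169 ± 4.76 and 159.6 ± 2.56 (SD, n = 4 each), and the log2 fold change was -0.0855 (SE 0.03, edgeR adjusted p = 0.0261). That is 0.943-fold, with a 95% interval from 0.904-fold to 0.982-fold. Without control replicate 1 or 2, or osteoclast-conditioned replicate 1 or 2, the adjusted p was 0.0666, 0.0704, 0.0840 and 0.0866, respectively, so the call depended on each of these samples, while the change stayed negative.

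Ptk2 (ENSMUSG00000022607; chromosome 15, 73205102 to 73423280, minus strand), the gene of FAK, was much lower in level and noisier. Its normalised CPM were 19.5, 24.3, 24.8 and 20.4 in control and 24.4, 22.3, 24.7 and 22.5 in osteoclast-conditioned medium. The groups overlap: control replicates 1 and 4 are the lowest samples, and control replicates 2 and 3 lie among the osteoclast-conditioned ones or just above them. The log2 fold change was 0.08 (SE 0.07, edgeR adjusted p = 0.425), with a 95% interval from 0.956-fold to 1.17-fold. Per kilobase of exons, Ptk2b made up 92.4% ± 0.879 of the level of the kinase pair in control and 91.6% ± 0.385 in conditioned samples (SD, n = 4 each).

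The order of the levels per kilobase of exons was set in control medium by Nedd9 (33.8 ± 0.960 normalised CPM per kilobase), Crkl (26.4 ± 0.340), Ptk2b (22.9 ± 0.644), Crk (22.1 ± 0.631), Sh2d3c (10.1 ± 0.408), Bcar3 (2.17 ± 0.218) and Ptk2 (1.89 ± 0.226; SD, n = 4). Ptk2b and Crk overlapped between samples there, as did Bcar3 and Ptk2, and the other neighbours in the order did not. In osteoclast-conditioned medium Crk (22.2 ± 0.310) lay above Ptk2b (21.6 ± 0.346), with no overlap between samples but a narrow gap. There Bcar3 stood at 5.54 ± 0.237 and Ptk2 at 1.99 ± 0.106, a ratio of 2.79 against 1.15 in control. That shift comes from the same Bcar3 counts and is no separate result. Bcar3 nevertheless remained below Sh2d3c, at 10.5 ± 0.353, in every culture. These levels rest on the annotation: per kilobase of the longest transcript, Ptk2b moved above Crkl in control (41.9 ± 1.18 against 26.4 ± 0.340) and Ptk2 (4.76 ± 0.571) above Bcar3 (3.68 ± 0.368). On that length Bcar3 (9.38 ± 0.40) lay above Ptk2 (5.02 ± 0.268) in osteoclast-conditioned medium, and Ptk2b (39.6 ± 0.634) above Crk (24.5 ± 0.342).

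**Figure D2:**
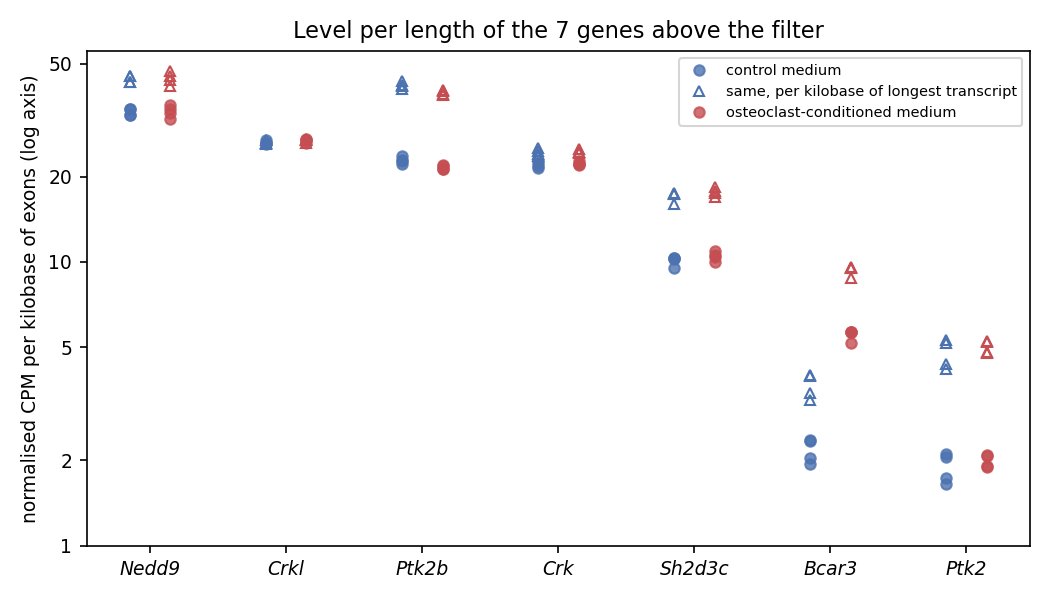
Normalised CPM per kilobase (log axis) of the 7 genes in each culture, by medium, as filled circles per kilobase of all exons and open triangles per kilobase of the longest transcript. Bcar3 lies near Ptk2 in control medium (2.17 and 1.89 per kilobase of exons) and between Ptk2 and Sh2d3c in osteoclast-conditioned medium, and the triangles show how far the choice of length moves each gene.

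Beyond these 9 genes, 75 other genes of the pathway, in 7 lists by role, were in the table and 62 passed the filter. Of the 62, 20 were called higher and 4 lower (32.3% and 6.45%, beside 15.7% and 14.8% of all tested genes), with a median log2 fold change of 0.04 against -0.01 over all tested genes. The lists are partial and were chosen with earlier results of these data known, so these shares are a description of the listed genes only. Scaling by total counts alone gave 16 higher and 7 lower, where 12.9% of all tested genes were called higher and 18.8% lower. With 1 sample left out at a time, 19 to 27 of these genes were called, where 2635 to 3578 of the 10784 to 10799 genes tested were called, and 19 to 23 of the 24 calls were kept with their direction. The 24 called differences lay between -0.64 and 0.48 on the log2 scale.

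The adaptors Nck1, Nck2 and Grb2, which link receptors and scaffolds to actin and RAS signalling, had log2 fold changes of -0.10, -0.04 and 0.01. None was called by edgeR, DESeq2 or limma-voom, and 0 had an unadjusted p under 0.05. Of 7 tested genes of the SRC family and its inhibitory kinase Csk, Fyn was the 1 called (30.5% of all tested genes were called), at 149.6 ± 2.60 against 168 ± 2.52 normalised CPM (log2 fold change 0.17, SE 0.03, edgeR adjusted p = 2.70e-05). Its control cultures ranged from 146 to 152 and the osteoclast-conditioned ones from 166 to 171, without overlap. Lyn, a main SRC family kinase of B cells, had a log2 fold change of 0.0007 (edgeR adjusted p = 0.989). Src itself was below the filter, with 6 to 11 counts per sample.

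Of 18 tested exchange factors and GTPases, 5 were called higher and 3 lower, beside 15.7% higher and 14.8% lower over all tested genes, so the lower calls are near the background. The median log2 fold change of the list was -0.02, against -0.01 over all tested genes. Dock2, the exchange factor for RAC in blood cells, rose from 368 ± 4.26 to 461 ± 8.64 normalised CPM (log2 fold change 0.33, SE 0.03, edgeR adjusted p = 3.40e-11). Its 4 control cultures were at 362, 371, 371 and 367 and the osteoclast-conditioned ones at 470.5, 451, 465 and 457, well apart. Dock1, the form bound by CRK and p130Cas in adherent cells, had 0 to 2 counts per sample. The largest falls of this list were in genes near the filter, and in both the groups overlapped. Elmo3, a partner of DOCK proteins, went from 2.68 ± 0.434 to 1.70 ± 0.348 normalised CPM (log2 fold change -0.64, edgeR adjusted p = 0.00740). Its lowest control culture was at 2.08 and its highest osteoclast-conditioned one at 2.22. Rac3, a RAC isoform, went from 2.93 ± 1.05 to 1.85 ± 0.291 (log2 fold change -0.64, edgeR adjusted p = 0.0413), with overlapping groups. The call of Rac3 was lost with limma-voom (adjusted p = 0.0719) and without control replicate 1 (0.134) or 4 (0.149), or osteoclast-conditioned replicate 1 (0.135), 2 (0.12), 3 (0.0519) or 4 (0.0641). Rapgef1, the RAP exchange factor held by CRK, was picked out after its values were seen, and it was higher in osteoclast-conditioned medium at 259.8 ± 3.87 against 237 ± 4.18 normalised CPM (log2 fold change 0.13, SE 0.03, edgeR adjusted p = 0.000334). Cdc42, chosen in the same way, was lower (log2 fold change -0.09, edgeR adjusted p = 0.0121).

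Focal adhesion scaffolds gave 6 calls among 15 tested genes, beside 30.5% called over all tested genes. Each of the 6 was higher, beside 15.7% called higher over all, and the median log2 fold change of the list was 0.11. The list is partial, so this direction is that of the listed genes only. Parvg, the parvin of blood cells that joins integrin-linked kinase to actin, had 337 ± 6.67 and 401.5 ± 6.43 normalised CPM (log2 fold change 0.25, edgeR adjusted p = 7.71e-09). Git2, a GTPase-activating protein that binds paxillin, followed with a log2 fold change of 0.15, and Pxn, paxillin itself, with 0.13 (edgeR adjusted p = 2.675e-05 and 0.000526). The other 8 listed scaffolds were below the filter, among them Zyx (0 to 2 counts per sample), the zyxin gene of adherent cells, and Fermt2, at 0 in all.

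The integrin list is partial, and Itgad, for one, was tested outside it. Of the 7 tested integrin genes in the list, 4 were called higher and 1 lower, beside 15.7% and 14.8% of all tested genes. Their median log2 fold change was 0.21. Itgal, the alpha chain of LFA-1, rose from 118 ± 0.495 to 164 ± 6.10 normalised CPM (log2 fold change 0.48, SE 0.03, edgeR adjusted p = 4.07e-13), and Itga6, a laminin receptor chain, from 215 ± 7.14 to 259.5 ± 6.31 (0.27). Itgb3, the beta chain of the vitronectin receptor and also an osteoclast marker, fell from 12.9 ± 1.41 to 10.7 ± 0.376 (log2 fold change -0.25, edgeR adjusted p = 0.0185). That call was lost without control replicate 1 (adjusted p = 0.0744) or 3 (0.0879). Among 11 phosphatases and ubiquitin ligases that act on CAS, FAK or their kinases, 4 were called, a share near the 30.5% of all tested genes. Each of the 4 was higher (15.7% over all tested genes), and the median log2 fold change of the list was 0.03. They included Ptpn22, a phosphatase of lymphocytes (log2 fold change 0.22), and the ubiquitin ligases Cbl (0.21) and Cblb (0.14), with edgeR adjusted p of 0.000670, 7.83e-05 and 0.00450. Ptpra, whose phosphatase product binds BCAR3, differed by 0.03 on the log2 scale (edgeR adjusted p = 0.415), with samples that did not overlap. Cul5 and Socs6, of a ubiquitin ligase known to act on CAS signalling, had -0.0025 and -0.08 (edgeR adjusted p = 0.965 and 0.377).

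**Figure D3:**
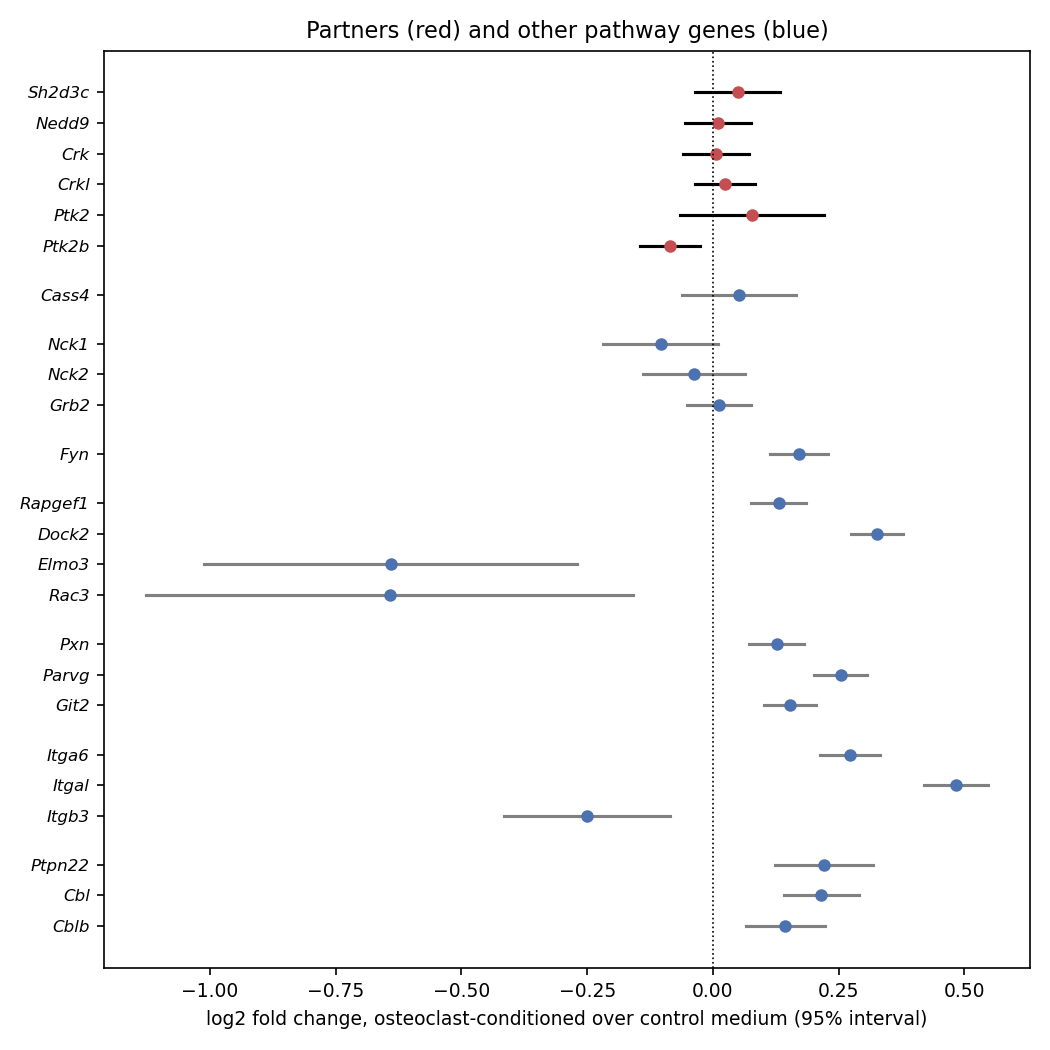
Log2 fold change of osteoclast-conditioned over control medium (horizontal axis) with its 95% interval, for the 6 tested partners of Bcar3 (red) and for pathway genes grouped by list (blue: the called genes with the largest changes, and Cass4, Rapgef1, Nck1, Nck2 and Grb2). The partners lie within 0.09 of 0, Dock2 at 0.33 and Itgal at 0.48, and the widest intervals belong to Elmo3 and Rac3, near the filter.

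The genes whose profiles were most alike to that of Bcar3 were found by the root mean square difference in log2 CPM over all 8 samples, with each gene centred on its own mean, among 9031 other genes averaging 5 CPM or more. Nupr1, a stress-induced chromatin factor, was nearest at 0.15, with means of 9.76 ± 1.32 and 22.2 ± 1.01 normalised CPM (SD, n = 4 each). Cth, which makes cysteine from cystathionine, followed at 0.17, with 48.1 ± 1.38 and 103.5 ± 2.16. Hpgds, a prostaglandin D synthase (0.20), Trib3, a pseudokinase of the stress response (0.21), and Slc6a9, a glycine transporter whose exons partly overlap other genes in GENCODE (0.21), made up the rest of the 5. Log2 fold changes of the 5 ran from 1.00 (Slc6a9) to 1.58 (Trib3), and in each the cultures fell apart by medium as those of Bcar3 did. The median difference over the 9031 genes was 0.69, and those of the partners ran from 0.65 (Ptk2) to 0.72 (Ptk2b). The measure is dominated by the difference between media, on which Bcar3 was chosen, so it is a description with no p.

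**Figure D4:**
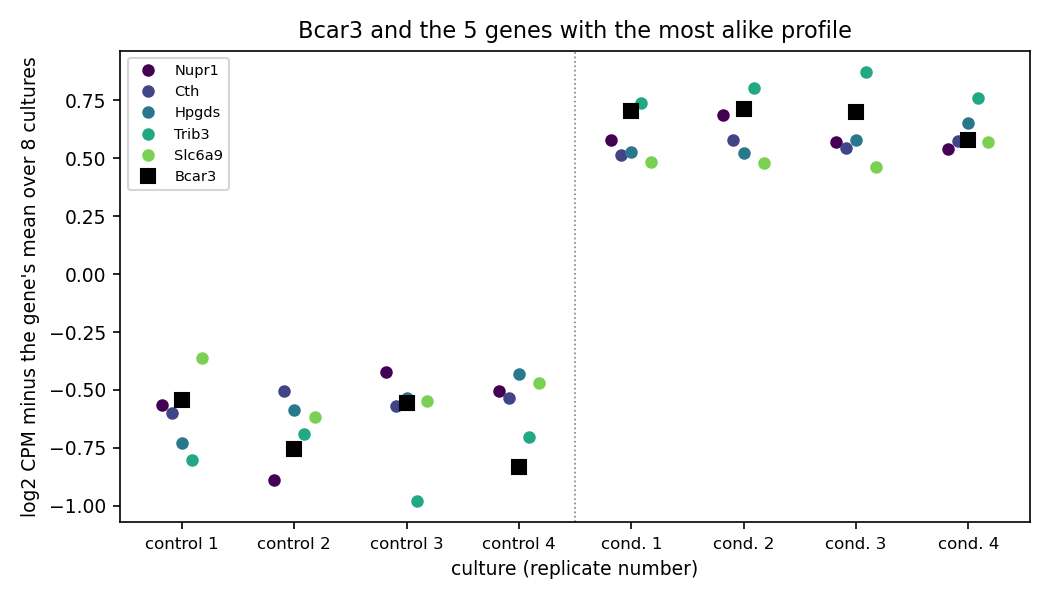
Log2 CPM of Bcar3 (black squares) and of the 5 genes with the most alike profile (circles), each minus its mean over the 8 cultures (vertical axis), for the cultures of each medium (horizontal axis, split by the dotted line). All 6 genes lie below 0 in every control culture and above 0 in every osteoclast-conditioned culture, and the spread within a medium differs between genes.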

How the data were processed

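RNA was extracted with RNeasy Plus Mini and sequenced from SureSelect HS2 libraries, per the labels' protocols. The submitters' processing notes name STAR 2.7.5a, featureCounts 2.0.1 and build mm10, with no role or order; annotation, strand setting and use of molecular barcodes are not given in the sources used here. The authors deposited 1 table of unnormalised whole-number counts by gene ID, and 0 columns were left unmatched. Groups came from the titles.

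Symbols, positions and exon lengths came from GENCODE M21 (GRCm38, the mm10 assembly), which matched 21817 of 21859 IDs. Sequences before transcription starts came from RefSeq (GRCm38.p6), matching 7 of the 9 genes and 4 of the 5 with alike profiles. Counts were filtered (filterByExpr defaults), TMM-scaled and fitted with edgeR 4.0.16 (robust glmQLFit, glmQLFTest, medium as term) in R 4.3.3 over all 10729 genes, with Benjamini-Hochberg adjustment and a threshold of 0.05; the fit was tested on simulated data. Standard errors are the absolute log2 fold change over the square root of F. Log2 CPM used a prior count of 2.

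The genes and lists were chosen with earlier results of these data known. All 9 genes were named, with up to 3 called genes of largest change per list and the 5 genes most alike to Bcar3; other genes named from the lists were chosen for their role or after their values were seen. Alternatives were DESeq2 1.42.0, limma-voom (limma 3.58.1), other scalings and filters, the replicate block, each sample left out, other lengths and a prior count of 0.5.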

Additional observations from a re-analysis of the deposited data

Results flagged for a closer look

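In 52 groups of 4 samples (26 results in each medium), the highest or lowest sample was compared with the other 3 by its gap to the nearest of them over the whole range; 4 groups passed Dixon's 95% critical value, where chance flags about 1 in 20, or 2.6. Bcar3 was lowest in osteoclast-conditioned replicate 4, at 29.1 normalised CPM against 31.6 to 31.9 (ratio 0.918), and its log2 fold change without that sample was 1.39. Sh2d3c was lowest in control replicate 3, at 49.7 normalised CPM against 53.8 to 54.2 (ratio 0.902). Cblb was lowest in osteoclast-conditioned replicate 4, at 64.9 normalised CPM against 67.6 to 68.1 (ratio 0.851). Slc6a9 was highest in osteoclast-conditioned replicate 4, at 39.5 normalised CPM against 36.7 to 37.1 (ratio 0.836). That replicate also had the highest mitochondrial share of counts, 1.44% against 1.16 to 1.19% in the other 3 of its medium; its part in these values was not tested.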

How the results depend on the processing

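The log2 fold change of Bcar3 ran from 1.34 to 1.36 over the other scalings, filters, tools and the replicate block, and from 1.31 to 1.41 when 1 sample was left out. Nedd9 and Crk, near 0, turned negative when scaled by total counts only (-0.01 and -0.01; -0.0110 and -0.0145 unrounded). Leaving out 1 sample gave -0.0134 to 0.0402 for Nedd9 and -0.0054 to 0.0237 for Crk, negative without osteoclast-conditioned replicate 2 (Nedd9, -0.0134), control replicate 3 (Crk, -0.0054) or osteoclast-conditioned replicate 4 (Crk, -0.0013). The cause was not tested, and no such value was past the threshold. Ptk2b stayed called under the 7 alternatives that kept all samples (adjusted p 0.00511 to 0.0450), and leaving out 1 sample gave log2 fold changes from -0.0984 to -0.0674 with adjusted p from 0.0132 to 0.0866. Sh2d3c, Crkl and Ptk2 kept their sign and were not called under any alternative run. Calls over all genes ran from 2690 to 3446 under those 7 alternatives and from 2635 to 3578 with 1 sample left out, and calls among the 62 pathway genes from 22 to 27 and from 19 to 27. Of the 24 pathway calls, 20 kept their call and direction with total counts only. Same-numbered samples had deviations correlating by -0.05 to 0.14, and 1 of 4 control samples correlated best with its own number, so the numbers were not taken as pairs; with the replicate block 3446 genes and 27 pathway genes were called, and Ptk2b had a log2 fold change of -0.0849 (adjusted p = 0.0305). Bcar1 and Efs had too few counts for any fit with a filter. The 5 genes most alike to Bcar3 were the same 5 with a prior count of 0.5.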
